A study of Canis lupus familiaris with 28 samples.

Results

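The genes of MHC class II antigen presentation were examined in the blood of dogs with atopic dermatitis (AD) and of healthy dogs. They were taken as all probes, controls aside, whose gene name on the array was CD74, CIITA or RFX5 or began with DLA-D or HLA-D. This gave 26 probes for 11 genes, among 43603 probes and 34382 gene names on the array, and all 26 passed the filter on signal that left 30202 probes. Each array carried RNA from the whole blood of 1 dog, labelled with Cy5, and a common reference of RNA pooled from 13 other healthy dogs, labelled with Cy3. The 20 AD dogs were privately owned animals of various breeds and crossbreeds, aged 1 to 8 years, sampled with visible signs of the disease and after at least 3 weeks without anti-inflammatory drugs. The 8 healthy dogs were blood donors of various breeds, aged 3 to 8 years. The labels do not tie a breed, an age or an MHC genotype to an array.

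MHC class II molecules are dimers of an alpha and a beta chain that display peptides of ingested antigens to helper T cells, on B cells, monocytes and dendritic cells in blood and, in dogs, also on many resting T cells. In dogs the classical molecules are called DLA-DR and DLA-DQ. Their peptide-binding groove is formed by both chains and holds most of the differences between alleles, so a probe of fixed sequence can bind the transcripts of different alleles unequally. CD74, the invariant chain, fills the groove until the DM molecule loads a peptide, a step that the DO molecule restrains, and transcription of the whole group is driven by CIITA together with factors such as RFX5. In whole blood, fewer cells of a type and less RNA per cell cannot be told apart.

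A selection of probes of DLA-DQB1, DLA-DQA1 and HLA-DRB1 is shown because the spread between dogs differed from one stretch of the same gene to the next, and 1 of DLA-DOB because it resembles a DLA-DQB1 probe. All are 60 bases long and read 5′ to 3′ as in the array files. Capitals mark the longest run of bases shared with another class II probe, where it had at least 12 bases.
DLA-DQB1 A_11_P054901: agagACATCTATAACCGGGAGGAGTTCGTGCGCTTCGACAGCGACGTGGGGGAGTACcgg
DLA-DQB1 A_11_P054896: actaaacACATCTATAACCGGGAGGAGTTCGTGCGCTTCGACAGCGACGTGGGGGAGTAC
DLA-DQB1 A_11_P0000020226: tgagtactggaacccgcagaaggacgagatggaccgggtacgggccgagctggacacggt
DLA-DQB1 A_11_P052649: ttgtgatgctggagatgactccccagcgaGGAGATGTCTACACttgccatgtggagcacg
DLA-DOB A_11_P090856: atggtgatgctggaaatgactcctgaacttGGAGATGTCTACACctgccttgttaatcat
DLA-DQA1 A_11_P052656: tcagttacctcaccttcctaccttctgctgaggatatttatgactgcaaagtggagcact
HLA-DRB1 A_11_P0000020227: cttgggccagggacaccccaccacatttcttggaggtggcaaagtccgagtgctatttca
HLA-DRB1 A_11_P055246: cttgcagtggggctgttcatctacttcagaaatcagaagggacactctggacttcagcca

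The first pair shared a run of 53 bases, with 96.5% identical bases over the 57 that overlap. The third DLA-DQB1 probe, A_11_P0000020226, starts at base 269 of the reference transcript, close behind A_11_P054896, which starts at base 177, and shared no such run with any other class II probe. The DLA-DQB1 probe A_11_P052649 and the DLA-DOB probe overlap by 59 bases, of which 78.0% are identical, with a common run of 14. These were the only 2 of 325 probe pairs with a shared run of 12 bases or more. On canFam3, the build named in the file headers, A_11_P0000020226 lies at chr12:2307760-2307819 on the minus strand and A_11_P054896 at chr12:2307852-2307911. The files place A_11_P054901, named after a partial DLA-DQB1 exon, at chr12:2157229-2157288, beside the DRB1 locus, although its sequence is nearly that of A_11_P054896. HLA-DRB1 is the name the array gives to the canine DRB1 gene, and its probe A_11_P0000020227 crosses a splice junction within chr12:2157321-2164447.

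Signals were high enough to measure every gene. In the Cy5 channel 25 of the 26 probes were well above background on 28 arrays and the RFX5 probe A_11_P0000027516 on 27, and no spot was saturated or had an outlier mark. The values below are log2 ratios of dog to common reference, centered on the median of each array, so 0 means the same share of signal as in the reference pool. No slide or scan day held dogs of both groups, so batch and group cannot be told apart. The 6 arrays of the last scan day, AD dogs 15 to 20, and that of AD dog 14 had a lower share of probes well above background, at most 63.2%, against at least 72.5% on all others.

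**Figure D1:**
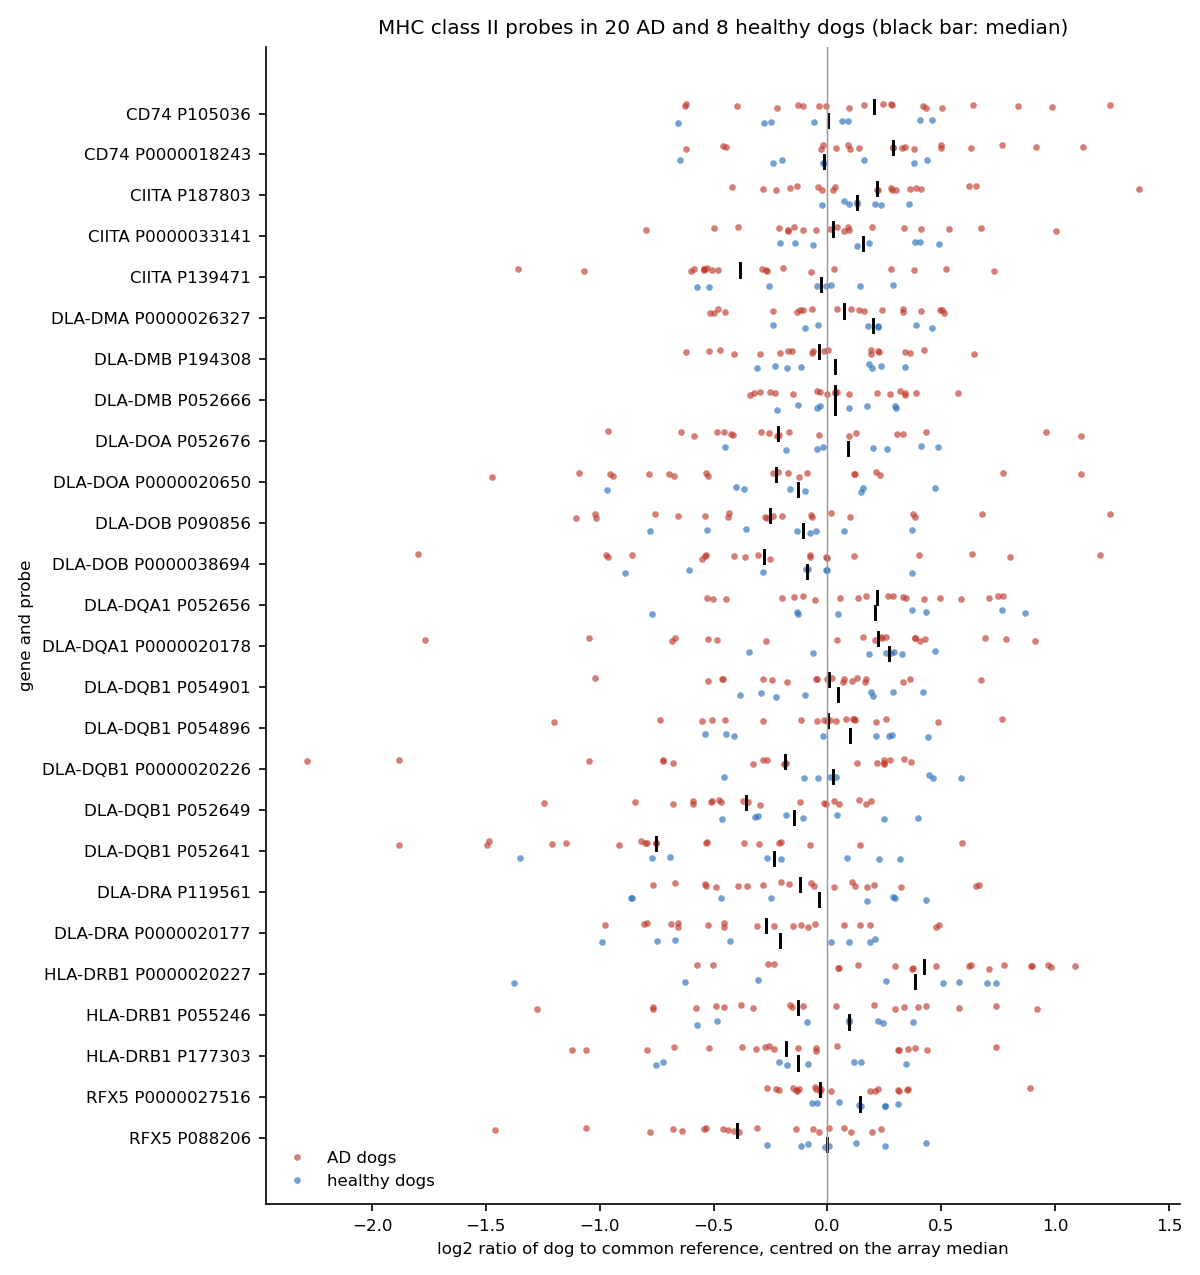
Log2 ratio of dog to common reference (x axis, centered on the array median) for each MHC class II probe (y axis, gene and probe name without its prefix A_11_), with 1 point for each of 20 AD dogs (red) and 8 healthy dogs (blue) and a black bar at the group median. The groups overlap on every probe, and the lowest value is that of an AD dog on DLA-DQB1 P0000020226, at -2.29.

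CD74 was level with or slightly above the reference in both groups. By probe A_11_P105036 the lowest AD dog was at -0.63, the median at 0.20 and the highest at 1.24, while the healthy dogs ranged from -0.66 over a median of 0.0044 to 0.46. Of the AD dogs, 5 lay above the highest healthy dog and 0 below the lowest. The second CD74 probe, A_11_P0000018243, gave nearly the same ranking of dogs, with r = 0.988 and rho = 0.992 in AD dogs and r = 0.988 in healthy dogs.

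The DR genes, which encode the main class II molecule of blood cells, showed uneven spread between probes. For the alpha chain gene DLA-DRA, probe A_11_P119561 lay between -0.76 and 0.67 in AD dogs, with a median of -0.12, and between -0.86 and 0.43 in healthy dogs, with a median of -0.038. Its healthy dogs had a larger SD (0.529) than its AD dogs (0.405), whereas over all 30202 probes the median SD was larger in AD dogs (0.433) than in healthy dogs (0.297). On the brightest DLA-DRA probe, A_11_P0000020177, the SDs were closer, at 0.475 in healthy dogs and 0.424 in AD dogs. The beta chain gene HLA-DRB1 was more uneven. Probe A_11_P0000020227, nearest the start of the transcript (base 118), had an SD of 0.760 over the healthy dogs, more than 97.4% of all probes. Healthy dog 6 was at -1.38 and healthy dog 8 at -0.62, whereas the other 6 lay between -0.31 and 0.74. In the dog's own channel healthy dog 6 had a signal of 1428 on this probe, healthy dog 8 had 2373 and the other 6 had 3708 to 6710, while the reference on the same arrays stayed between 3375 and 4632. The AD dogs were spread from -0.57 over a median of 0.43 to 1.09 on this probe. On the other DRB1 probes healthy dog 8 stood at 0.22 and -0.084, inside the range of the group, and healthy dog 6 was lowest or next to lowest, at -0.57 and -0.72. In healthy dogs A_11_P0000020227 had r = 0.224 (rho = -0.071) with the brightest DRB1 probe, A_11_P177303, which had r = 0.843 with A_11_P055246 (rho = 0.595). Without the 2 farthest dogs of each pair these were r = -0.575 and r = 0.168, so both rest on 2 of the 8 dogs.

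In the DQ genes 2 AD dogs lay far below the others on single probes. On DLA-DQB1 probe A_11_P0000020226 AD dog 7 was at -2.29 and AD dog 15 at -1.88, while the other 18 AD dogs lay between -1.05 and 0.37 with a median of -0.18. Healthy dogs lay between -0.45 and 0.59 with a median of 0.024. The low ratios were low signals in the dog's channel, where these 2 dogs had signals of 2522 and 2782 against 6203 to 17300 in the other AD dogs, and the reference on the AD arrays varied only from 8849 to 15850. Both dogs were unremarkable on the remaining probes named DLA-DQB1. Their values were 0.13 and -0.0010 on A_11_P054901 and 0.11 and -0.0020 on A_11_P054896. On A_11_P052649 they were -0.37 and -0.35, and on A_11_P052641 -0.80 and -0.75. A_11_P054901 and A_11_P054896 share a run of 53 bases and are not independent readings. The files place A_11_P054901 beside the DRB1 locus, and which transcripts these probes bind was not tested. AD dogs 7 and 15 were on different slides and scan days. A gap of 0.835 or more between the 2 lowest AD dogs and the rest was found on 358 of 30115 probes with a value on every array (1.19%), and on 12 of the 7366 bright ones, with a median signal of at least 1000 in both groups (0.163%). The limit of 0.835 is the gap on A_11_P0000020226 itself, a probe picked after its values were seen. These shares describe the array and give no chance level. Dogs 7 and 15 were the 2 lowest AD dogs on 182 of the 30115 probes (0.604%), and with such a gap on 2 of them, A_11_P0000020226 and a probe of a gene outside the group.

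Another of the 182 probes belonged to DLA-DQA1, the gene of the partner alpha chain, with a smaller gap. On A_11_P0000020178, which starts at base 1627 of the transcript, AD dog 7 was at -1.05 and AD dog 15 at -1.77, against -0.68 to 0.91 in the other AD dogs. On the other DLA-DQA1 probe, A_11_P052656, they were at 0.17 and 0.33, among 18 others between -0.53 and 0.77. Healthy dogs spanned -0.35 to 0.47 on the first of these and -0.77 to 0.87 on the second.

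**Figure D2:**
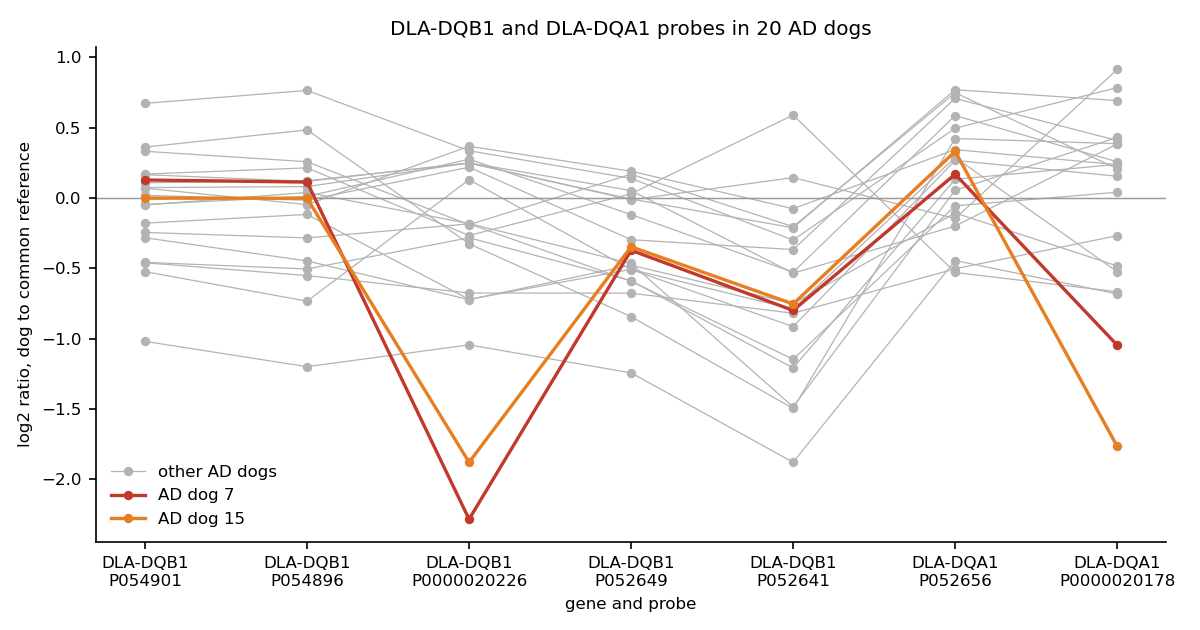
Log2 ratio of dog to common reference (y axis) on 5 DLA-DQB1 and 2 DLA-DQA1 probes (x axis, probe names without A_11_), with a line for each of 20 AD dogs. AD dogs 7 (red) and 15 (orange) drop to -2.29 and -1.88 on P0000020226 and to -1.05 and -1.77 on P0000020178 and run among the other dogs (grey) on the remaining 5 probes.

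Over the 20 AD dogs these probes of the DQ alpha and beta chains followed each other with r = 0.877 and rho = 0.770. Without dogs 7 and 15, which are the farthest from the median, r was 0.806. With the mean of each slide removed it was 0.891 and without the last scan day 0.890. In the 8 healthy dogs r was 0.305 (rho = 0.071). The value in AD dogs was the 17th highest of 325 pairs of class II probes. By contrast, A_11_P0000020226 had r = 0.224 with A_11_P054896, of the same gene name, and the DLA-DQA1 probes had r = 0.317 with each other. These last values rose to 0.569 and 0.557 without the 2 farthest dogs. The pairs were picked after their values were seen, so no p is given, and whether alleles differ between these dogs was not tested.

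**Figure D3:**
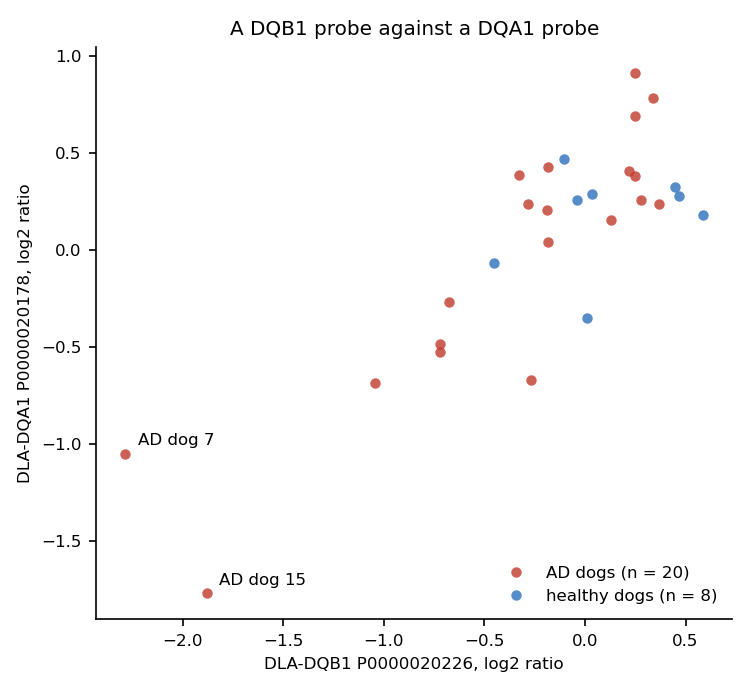
Log2 ratio of DLA-DQB1 probe P0000020226 (x axis) against DLA-DQA1 probe P0000020178 (y axis), with a point for each AD dog (red) and healthy dog (blue). The AD dogs lie along a line (r = 0.877), with dogs 7 and 15 at its low end. The 8 healthy dogs scatter from -0.45 to 0.59 on the x axis and from -0.35 to 0.47 on the y axis (r = 0.305).

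Among the accessory genes, DLA-DMA and DLA-DMB, the chains of the peptide loader DM, varied least. Probe A_11_P052666 of DLA-DMB ranged from -0.34 to 0.57 in AD dogs and from -0.22 to 0.30 in healthy dogs, with SDs of 0.266 and 0.194, under those of most probes. DLA-DMA ranged from -0.52 to 0.51 in AD dogs and from -0.24 to 0.46 in healthy dogs. The chains of the DM inhibitor DO varied most among the accessory genes. Their probes were dimmer, with median signals in AD dogs of 411 to 1089, against 1838 to 5397 for DM. The part of low signal in their spread was not tested. Probe A_11_P0000038694 of DLA-DOB ran from -1.80 in AD dog 16, at a signal of 101.9, to 1.20 in AD dog 11. Its median was -0.28 in AD dogs, and healthy dogs ran from -0.89 to 0.37. DLA-DOA probe A_11_P0000020650 ran from -1.48 to 1.11 in the same AD dogs and from -0.97 to 0.47 in healthy dogs. The brightest DLA-DOB probe, A_11_P090856, had a narrower range, from -1.105 to 1.241 in AD dogs and from -0.78 to 0.37 in healthy dogs.

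The regulators lay near the reference in healthy dogs and had medians below it in AD dogs on their brightest probes. The brightest probe of CIITA, the master activator of class II transcription, ranged from -1.36 over a median of -0.38 to 0.73 in AD dogs and from -0.57 over -0.026 to 0.29 in healthy dogs. RFX5, a subunit of the factor bound to class II promoters, ranged on probe A_11_P088206 from -1.46 over a median of -0.40 to 0.24 in AD dogs and from -0.27 over -0.0016 to 0.43 in healthy dogs. Here 16 of 20 AD dogs were below the healthy mean, and 12 of them were below the lowest healthy dog. CIITA probe A_11_P187803 went its own way, with r = 0.003 against the brightest CIITA probe, A_11_P139471, in AD dogs and r = -0.721 in healthy dogs. Its median signal was 200.4 in AD dogs, so CIITA was read from A_11_P139471.

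No class II gene passed the test between the groups. With limma, 0 of 26 class II probes and 0 of the 30202 probes tested (0%) reached an adjusted p of 0.085 or less, and 0 reached 0.05. The paper, whose signal filter kept fewer transcripts, did report differentially expressed transcripts at 0.085. Its printed list of those with known ontology names no class II gene. The cause of the different counts was not tested. At an unadjusted p under 0.05, 1 of 26 class II probes passed (3.85%), against 1847 of all probes (6.12%), with 1348 lower in AD (4.46%) and 499 higher (1.65%). That probe was RFX5 A_11_P088206, with means of -0.37 (SD 0.434, n = 20) for AD and 0.043 (SD 0.221, n = 8) for healthy dogs, a log2 difference of -0.41 (SE 0.162, 95% confidence interval -0.74 to -0.078) and an adjusted p of 0.602 in limma. The other RFX5 probe gave -0.059 (SE 0.115). The unadjusted p was 0.0171, became 0.0524 without slide 1 and 0.141 without slide 3, and with array weights the adjusted p was 0.0571 in limma, for a difference of -0.48, in a fit that called 849 probes in all. The largest difference was that of DLA-DQB1 A_11_P0000020226, at -0.45 (SE 0.257, adjusted p = 0.865 in limma), which became -0.26 without AD dogs 7 and 15. On DLA-DQA1 A_11_P0000020178 the difference of -0.19 became -0.036 without them. CD74 was 0.23 (SE 0.190) and 0.26 (SE 0.174) higher in AD dogs by its 2 probes, with adjusted p of 0.872 and 0.866 in limma. When the dog's channel was quantile normalized alone, without the reference, these became 0.76 and 0.82 with adjusted p of 0.0517 and 0.0292 in limma, in a fit that called 1251 probes in all. The reference itself was brighter on the AD arrays, with a median CD74 signal of 17980 against 11150 on the healthy arrays for A_11_P105036.

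Over the 26 probes the median log2 difference was -0.060, against -0.0096 over all probes, and 19 of 26 were lower in AD dogs (73.1%), against 52.1% of all probes. By the brightest probe of each gene the median over 11 genes was -0.029, which turned to 0.20 in the dog's channel alone. The confidence intervals were wide: for DLA-DRA A_11_P0000020177 the difference of 0.013 had an interval from -0.35 to 0.38, and for HLA-DRB1 A_11_P177303 that of 0.0037 had one from -0.39 to 0.40.

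**Figure D4:**
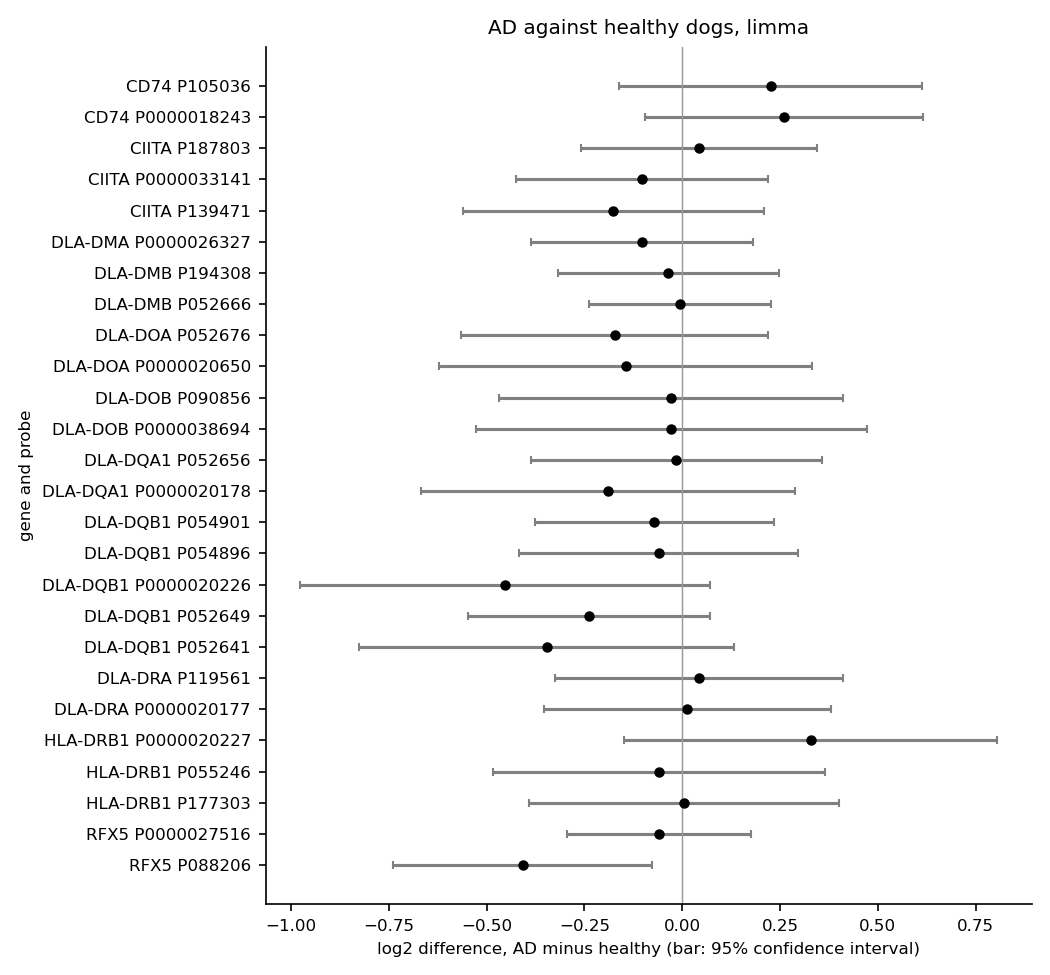
Log2 difference between 20 AD and 8 healthy dogs (x axis, AD minus healthy, point) with its 95% confidence interval from limma (bar) for each class II probe (y axis, names without A_11_). All intervals but that of RFX5 P088206 (-0.74 to -0.078) include 0.

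The spread between dogs was close to that of the array in AD dogs over all probes, and larger among bright probes. The median SD over the 26 probes was 0.443 for AD and 0.349 for healthy dogs, against 0.433 and 0.297 over all probes. Over the 19 bright class II probes it was 0.434 and 0.352, against 0.350 and 0.291 over all bright probes. At least 1 AD dog lay 1 or more from the group median on 14 of 26 class II probes (53.8%) and on 49.2% of all probes. Among bright probes this was 8 of 19 (42.1%) against 28.3%. For the healthy group the order was the reverse, with 2 of 26 class II probes (7.69%) against 11.1% of all probes. Among bright probes the healthy shares were 10.5% and 13.5%. The widest gap between neighbouring dogs, as a share of the range, was near that of the array. For AD its median was 0.2305 over class II probes, against 0.2193 over all probes. For the healthy group these medians were 0.3437 and 0.3565. The dogs at the ends were largely the same from gene to gene. AD dog 14 was the lowest AD dog on 14 of 26 probes, and AD dogs 11 and 19 were the highest on 10 and 8. AD dog 14 had few probes well above background (60.2%). AD dog 19 belonged to the last scan day and AD dog 11 did not. In healthy dogs, dog 8 was highest on 12 probes and dogs 1 and 6 lowest on 8 each.

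The class II genes varied together over dogs. Among the 171 pairs of the 19 bright class II probes the median r was 0.637 in AD dogs, and 69.6% exceeded 0.5. Over all 27125295 pairs of bright probes the median was 0.0045, and 15.6% exceeded 0.5. In healthy dogs the medians were 0.513 and 0.013. Without the last scan day the AD median of the class II pairs was 0.729. The points share arrays, centering and, in part, genes, and the values are a description. The tightest pairs of different genes were DLA-DOA A_11_P0000020650 with DLA-DOB A_11_P090856 (r = 0.919), DLA-DMA with DLA-DMB A_11_P194308 (r = 0.913), and CIITA A_11_P139471 with RFX5 A_11_P088206 (r = 0.906, rho = 0.829). The last held in healthy dogs too, at r = 0.915 (rho = 0.976), whereas DLA-DMA with DLA-DMB had r = 0.378 there. Other probes of these regulators were less alike. CIITA A_11_P0000033141 had r = 0.727 with RFX5 A_11_P088206 in AD dogs and 0.281 in healthy dogs. RFX5 A_11_P0000027516 had r = 0.492 and 0.476 with CIITA A_11_P139471. The 23 pairs within a class II gene ranged from r = 0.003 to r = 0.988 with a median of 0.669, against 0.530 over all 9989 such pairs on the array. Where both probes were bright, the median was 0.694 over 17 class II pairs and 0.845 over 1837 pairs of the array.

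**Figure D5:**
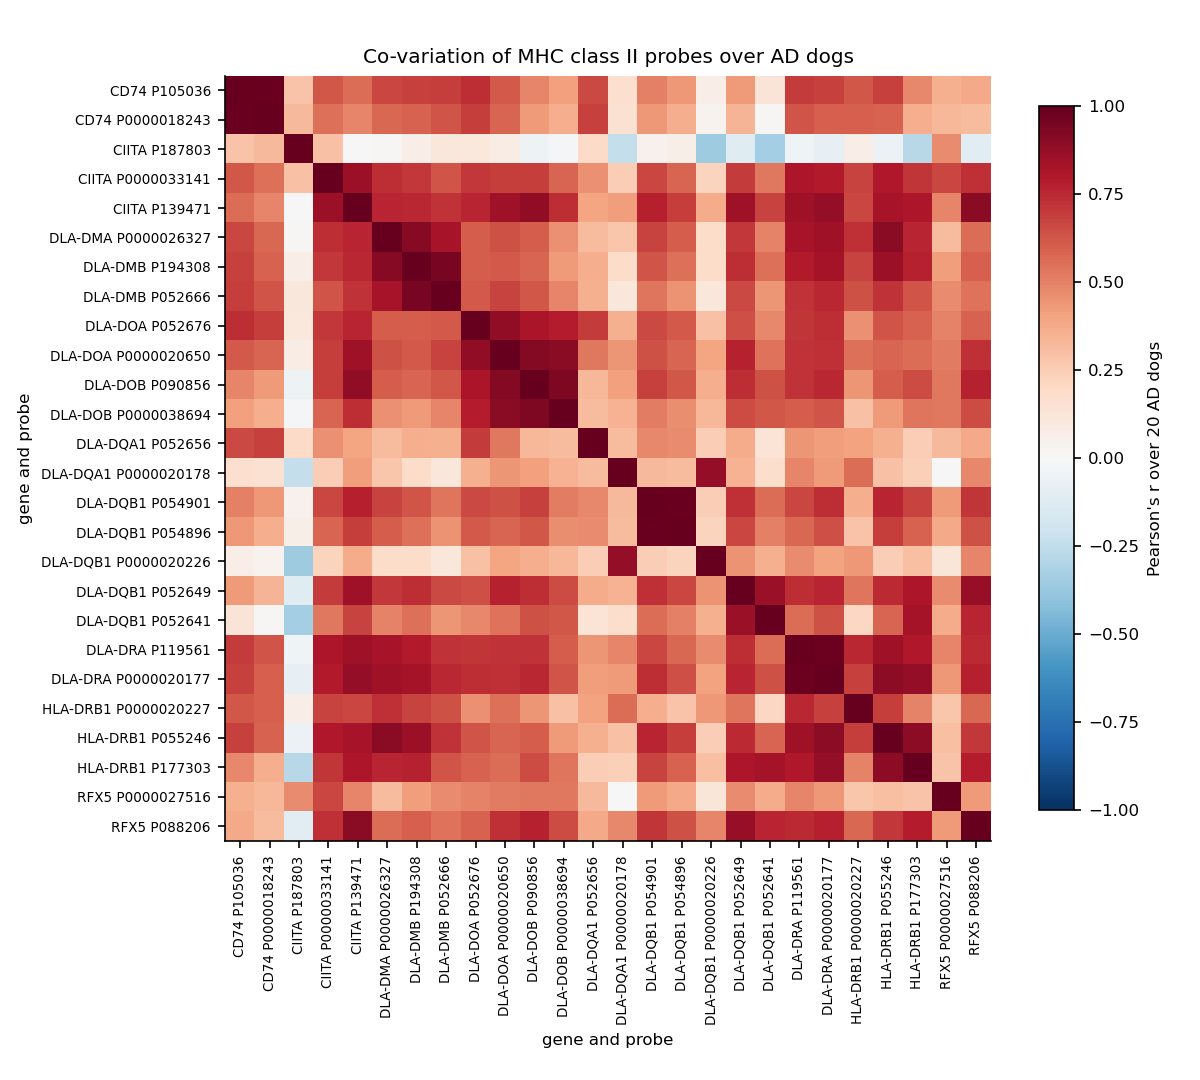
Pearson's r over 20 AD dogs for every pair of class II probes (both axes, names without A_11_; color scale from -1 to 1). Most pairs are positive, with a median of 0.577 and a lowest value of -0.352 over the 302 pairs of different genes.

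CD74 was set against 5 genes in each group, each gene by its brightest probe, with permutation tests over dogs and adjustment over the 10 pairs. None passed at an adjusted p of 0.05. In AD dogs the correlation with CIITA was r = 0.562 (rho = 0.546, permutation p = 0.00995 and 0.0139, adjusted p = 0.0792 and 0.0769) and r = 0.461 without the 2 farthest dogs. With HLA-DRB1 it was r = 0.481 (rho = 0.504, permutation p = 0.0317 and 0.0255, adjusted p = 0.0792 and 0.0849), and 0.386 without the 2 farthest dogs. For HLA-DRB1 the value differed between batches, with r = 0.929 over the 6 dogs of scan day 4 and 0.239 over the 6 dogs of scan day 5. For CIITA these were 0.952 and 0.708. Without scan day 5 the correlation with HLA-DRB1 was 0.889, that with CIITA 0.844 and that with RFX5 0.725, each with an adjusted permutation p of at most 0.0104. With RFX5 the correlation over all AD dogs was r = 0.378 (rho = 0.340, permutation p = 0.101 and 0.143, adjusted p = 0.144 and 0.214), and r = 0.291 without the 2 farthest dogs. In healthy dogs it was r = 0.705 (rho = 0.667, exact permutation p = 0.0506 and 0.0831, adjusted p = 0.101 and 0.166), and 0.926 without the 2 farthest. The other healthy correlations with class II genes were r = 0.378 for HLA-DRB1 (rho = 0.405, exact permutation p = 0.358 and 0.327, adjusted p = 0.358 and 0.363), 0.290 without the 2 farthest dogs, and r = 0.484 for CIITA (rho = 0.548, exact permutation p = 0.229 and 0.171, adjusted p = 0.257 and 0.214), 0.848 without them.

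Against MS4A1, which encodes the B cell antigen CD20, CD74 had r = 0.794 in healthy dogs (rho = 0.833, exact permutation p = 0.0194 and 0.0154, adjusted p = 0.0792 and 0.0769), and 0.611 without the 2 farthest dogs. In AD dogs it had r = 0.280 (rho = 0.164, permutation p = 0.231 and 0.490, adjusted p = 0.257 and 0.490), and 0.032 without them. Against CD14, a monocyte receptor, CD74 had r = -0.743 in healthy dogs (rho = -0.548, exact permutation p = 0.0314 and 0.171, adjusted p = 0.0792 and 0.214), and -0.554 without the 2 farthest dogs. In AD dogs it had r = 0.393 (rho = 0.426, permutation p = 0.0859 and 0.0625, adjusted p = 0.143 and 0.156), and 0.339 without them. The differences between the groups were not tested.

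Cell type markers moved with several class II genes. By flow cytometry, which counts cells rather than RNA, the paper reported smaller percentages of B cells and of T cells among lymphocytes of AD dogs. The mean of 8 B cell markers ran from -1.21 to 0.70 over AD dogs and from -0.48 to 0.20 over healthy dogs, and 0 of the 8 passed an unadjusted p of 0.05 between the groups in limma. In AD dogs DLA-DOB A_11_P0000038694 followed this mean with r = 0.896 (rho = 0.847, and r = 0.879 without the 2 farthest dogs) and DLA-DOA A_11_P0000020650 with r = 0.870 (rho = 0.803, and r = 0.834 without them). In healthy dogs DLA-DOB had r = 0.814 and DLA-DOA r = 0.864, the latter 0.197 without the 2 farthest dogs. CD74 A_11_P105036 followed the B cell mean less closely in AD dogs (r = 0.511, rho = 0.250). The mean of 6 of 7 neutrophil markers ran from -0.57 to 1.44 in AD dogs and from -0.46 to 0.52 in healthy dogs, and 25 of 26 class II probes had a negative r with it in AD dogs, with a median of -0.534. In healthy dogs 19 of 26 were negative, with a median of -0.176. RFX5 A_11_P088206 had r = -0.767 (rho = -0.714) in AD dogs, and r = -0.377 (rho = -0.119) in healthy dogs, which was 0.194 without the 2 farthest. The mean of 4 of 6 red cell markers ran from -1.26 to 1.49 in AD dogs and from -1.34 to 1.05 in healthy dogs, with a median r of -0.471 and -0.291, and HLA-DRB1 A_11_P177303 had r = -0.758 with it in AD dogs (rho = -0.811) and r = -0.914 in healthy dogs. The mean of 7 monocyte markers ran from -0.98 to 0.51 and from -0.48 to 0.24 in the groups, with a median r with the class II probes of 0.120 for AD and -0.148 for healthy dogs. The mean of 5 of 6 dendritic cell markers ran from -0.94 to 0.68 and from -0.35 to 0.27, with a median r of 0.486 and 0.374. The mean of 7 of 8 T cell markers ran from -0.58 to 0.57 and from -0.60 to 0.30, with a median r of 0.370 and 0.247. The T cell list includes CD4 and the monocyte list S100A12. In AD dogs the mean was 0.63 for CD4 and 0.35 for CD3E, against -0.27 for CD3D and -0.34 for CD3G. Whether each listed gene marks only its cell type in dog blood was not tested. Without the last scan day, r with the B cell mean in AD dogs was 0.842 for DLA-DOB A_11_P0000038694, 0.786 for DLA-DOA A_11_P0000020650 and 0.485 for CD74 A_11_P105036. It was -0.903 for RFX5 A_11_P088206 with neutrophils and -0.815 for HLA-DRB1 A_11_P177303 with red cells. CD74 A_11_P105036 was less stable, going from -0.127 to -0.797 with neutrophils and from -0.337 to -0.736 with red cells. The r of all other probes with these marker means was not determined, so the counts and medians cannot be read as particular to class II genes. The part of cell composition in the class II values was not tested.

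The genes outside the class II group whose values were most like those of the brightest class II probe, HLA-DRB1 A_11_P177303, over 28 arrays with group means removed, were MGAT1 (r = 0.916), SSR2 (r = 0.912), EMD (r = 0.907), DDX23 (r = 0.900), SETDB1 (r = 0.898), EIF4H (r = 0.896), CDK5RAP3 (r = 0.892) and SYNRG (r = 0.888), out of 30115 probes ranked. In AD dogs alone SSR2 had r = 0.924 with this probe. The highest value of another class II probe was 0.896, for HLA-DRB1 A_11_P055246. Close co-variation with this probe was thus not particular to class II genes.

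Other genes of the pathway gave the same picture between the groups. Of 6 partners in class II transcription, all were tested and 1 had an unadjusted p under 0.05, NFYC, a subunit of the factor NF-Y, at 0.21 higher in AD dogs (SE 0.0996, adjusted p = 0.803 in limma). The list had a median log2 difference of -0.0075. Of the 6 genes of the interferon gamma response, which induces CIITA, 4 were tested with a median of 0.0074, and IRF1 was at 0.31 (SE 0.175, adjusted p = 0.866 in limma). Of 9 names for lysosomal proteins that prepare antigens, 6 were tested with a median of -0.044, among them CTSS, the protease that trims CD74, at -0.18 (SE 0.181). Of 7 names for class II turnover and costimulation, 4 were tested with a median of -0.070, and CD80, a costimulatory ligand, was at -0.31 (SE 0.174). Of 13 names for MHC class I presentation, 7 were tested with a median of -0.14, and 5 of the 7 were lower in AD dogs. DLA-12, a class I gene, was at -0.25 (SE 0.150) and B2M, the class I light chain, at -0.046 (SE 0.207). None of these lists had a probe called, and NFYC was the only gene of the 5 lists, by its brightest probe, with an unadjusted p under 0.05.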

How the data were processed

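Whole blood RNA of 20 AD and 8 healthy dogs was measured on 1 two-color canine array each. The deposited files, made by the authors with Agilent Feature Extraction (10.7.3.1 in the submitters' notes, 10.10.1.1 in the file headers), hold spot intensities on a linear scale after background subtraction and Lowess dye normalization. The log10 ratios of the value table the authors deposited repeat the ratio column of these files and were used as an alternative.

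Control spots were left out. Spots with an outlier mark were set to missing, and spots of 1 probe were averaged. Log2 ratios of dog to common reference were centered by subtracting each array's own median, taken over probes that passed a filter: these needed a value on at least 1 in 2 arrays of each group and a median processed signal above 100 in a channel of a group. Testing used limma 3.58.1 in R 4.3.3 (lmFit, eBayes, two-sided, Benjamini-Hochberg over 30202 probes), with thresholds of 0.085, the adjusted p named in the paper's results, and 0.05. Correlations were tested with 100000 permutations in AD dogs and exactly in healthy dogs, two-sided. The fit was also run on simulated independent values without slide or scan day effects, which cannot show how it behaves under batches. Figures used matplotlib 3.10.9. The number of arrays limits the precision. In limma the p-values set a group difference against the variation between dogs of 1 array each, which includes that between arrays. The permutation p-values set a correlation against values shuffled over dogs.

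The class II genes, the pathway and marker lists and the tests were chosen with earlier results of these data known. In the tested correlations, the gene lists, the marker means and the summary by gene, a gene with several probes was read from its brightest probe. Elsewhere the probe is named, and it was not always the brightest. Genes outside the group were named from these lists, or as the 8 most like the brightest DLA-D or HLA-D probe. The accessions of 16 of the 26 probes matched the RefSeq gene table (UU_Cfam_GSD_1.0), which was used for names only.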

Additional observations from a re-analysis of the deposited data

How the results depend on the processing

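The number of probes past an adjusted p of 0.085 in limma was 0, and it became 3 with no filter on low signal, 1251 in the dog's channel alone and 849 with array weights. Of the class II probes, 2 were called in the dog's channel alone, both of CD74, and 1 with array weights, of RFX5, and 0 under each of the other alternatives. The same counts for the gene lists were 2 and 1. The median log2 difference by the brightest probe of each class II gene became 0.20 in the dog's channel alone and otherwise ranged from -0.16 upward. Over all class II probes the median ranged from -0.16 to 0.064, and the median SD over AD dogs from 0.382 to 0.522. In AD dogs the correlation of CD74 with HLA-DRB1 became 0.661, with CIITA 0.740 and with RFX5 0.661 in the dog's channel alone, that with CIITA became 0.667 with slide means removed, and without scan day 5 they were 0.889, 0.844 and 0.725. All of these then passed an adjusted permutation p of 0.05. The cause was not tested.

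Of 624 log2 differences of single class II probes under alternatives, 556 kept their direction and side of the threshold, and 3 passed it newly (CD74 at 0.76 and 0.82 in the dog's channel alone, RFX5 A_11_P088206 at -0.48 with array weights). RFX5 A_11_P088206 ranged from -0.55 to -0.28. The other 65 changed sign, on 15 probes whose reported difference was at most 0.173 in size. With no filter, and likewise with centering on all probes, DLA-DRA A_11_P0000020177 was -0.021 and HLA-DRB1 A_11_P177303 was -0.030. With no centering A_11_P177303 was -0.00026, and with slide as a random block -0.0024. With normexp and loess DLA-DOB A_11_P090856 was 0.070 and A_11_P0000038694 0.068, HLA-DRB1 A_11_P055246 0.068, and DLA-DMB A_11_P052666 0.0045 and A_11_P194308 0.00084. In the dog's channel alone DLA-DOA A_11_P0000020650 was 0.26 and A_11_P052676 0.041, CIITA A_11_P187803 -0.23, DLA-DOB A_11_P090856 0.053 and A_11_P0000038694 0.045, DLA-DMB A_11_P052666 0.26 and A_11_P194308 0.17, DLA-DMA 0.22, DLA-DQA1 A_11_P052656 0.20, DLA-DQB1 A_11_P054896 0.075 and A_11_P054901 0.082, and HLA-DRB1 A_11_P055246 0.16. Without scan day 5 CIITA A_11_P187803 was -0.0011, DLA-DRA A_11_P0000020177 -0.0080 and HLA-DRB1 A_11_P177303 -0.054. With array weights DLA-DRA A_11_P119561 was -0.055 and A_11_P0000020177 -0.089, and HLA-DRB1 A_11_P177303 -0.065. Without slide 1 DLA-DOB was 0.071 (A_11_P090856) and 0.054 (A_11_P0000038694) and DLA-DMB 0.051 (A_11_P052666) and 0.012 (A_11_P194308). Without slide 2 the same DLA-DOB probes were 0.040 and 0.055, DLA-DQA1 A_11_P052656 0.19 and DLA-DMB A_11_P194308 0.010. Without slide 3 DLA-DRA was -0.28 (A_11_P119561) and -0.21 (A_11_P0000020177), HLA-DRB1 A_11_P177303 -0.13, DLA-DQB1 A_11_P054896 0.040 and DLA-DMA 0.0067. Without slide 4 DLA-DOB A_11_P0000038694 was 0.0019. Without slide 5 the same DLA-DRA probes were -0.037 and -0.055 and HLA-DRB1 A_11_P177303 -0.061. Without slide 6 DLA-DOB A_11_P090856 was 0.046 and A_11_P0000038694 0.030, DLA-DMB A_11_P052666 0.023 and A_11_P194308 0.0080, DLA-DQA1 A_11_P052656 0.014, DLA-DQB1 A_11_P054896 0.038 and A_11_P054901 0.0079, and HLA-DRB1 A_11_P055246 0.020. Without slide 7 DLA-DOB A_11_P090856 was 0.014 and A_11_P0000038694 0.045, DLA-DMB A_11_P052666 0.0028 and DLA-DQA1 A_11_P052656 0.030. Without slide 8 DLA-DRA A_11_P119561 was -0.00098 and A_11_P0000020177 -0.038, and HLA-DRB1 A_11_P177303 -0.047.

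The dog numbers name different animals in the groups and do not pair them: same-numbered dogs had correlations of -0.359 to 0.425 between their deviations, over 0.1 in 4 of 8. With the number as a replicate block 0 class II probes were called, and DLA-DRA A_11_P119561 was -0.085 and A_11_P0000020177 -0.092, HLA-DRB1 A_11_P177303 -0.092 and DLA-DQA1 A_11_P052656 0.029. The setting without AD dogs 7 and 15 and the settings for spread and gene lists were chosen after the data had been seen. Each group lay on its own slides, and the low share of probes above background on the last scan day limits what its 6 dogs show.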
